A study of Mus musculus with 14 samples.

Results

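The 8 genes described here encode the mast cell chymases and granzyme-like serine proteases of the chymase locus on mouse chromosome 14: Cma1, Cma2, Mcpt1, Mcpt2, Mcpt4, Mcpt8, Mcpt9 and Gzmb. They were taken by symbol from a table of 55487 genes, and all 8 were found once each. RNA was sequenced from 14 libraries of mast cells sorted from mouse ears, each from up to 100 cells pooled over both ears of a mouse or mice. Resident mast cells of untreated mice gave 5 libraries (1 to 5), resident mast cells of mice treated with MC903 gave 5 (6 to 10), and cells of MC903-treated mice that the labels call bone marrow mast cells gave 4 (11, 13, 14 and 15). MC903 is calcipotriol, a vitamin D analogue that produces a dermatitis resembling atopic dermatitis when applied to mouse skin. The protocol speaks of ear mast cells that are either resident or positive for integrin β7 and of no others, so the bone marrow group was read as the latter; its label is kept here. Strain, sex, age, the length of treatment and the number of mice per library were not given in the sources used here, and no vehicle-treated group was analysed here. Because the labels tie no library to an animal, p-values measure only the spread between libraries, which may be technical.

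Mast cells store large amounts of serine proteases in their granules, bound to the proteoglycan serglycin, and release them when they are activated. Chymases typically cut proteins after aromatic residues, although the mouse Cma1 protein is elastase-like. In mice the family is split by tissue. Connective tissue mast cells of the skin and peritoneum carry Cma1 and Mcpt4. Mucosal mast cells of the inflamed gut and airway carry Mcpt1 and Mcpt2. Granzyme B, the product of Gzmb, cuts after aspartic acid and is best known from cytotoxic lymphocytes, but mast cells can make it too.

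The genes lie within 320.81 kb of GRCm38 chromosome 14, in a locus of 16 listed genes, 1 of them a pseudogene. Cma1 (ENSMUSG00000022225.7) spans 55941451 to 55944675 on the minus strand, Mcpt1 56017971 to 56020384 on the plus strand, Mcpt2 56042041 to 56044642 on the plus strand and Mcpt4 56059629 to 56062313 on the minus strand. Mcpt8 spans 56082166 to 56085273 and Gzmb (ENSMUSG00000015437.5) 56258838 to 56262260, both on the minus strand. Cma2 spans 55950980 to 55974031 on the plus strand and Mcpt9 56026864 to 56030495 on the minus strand. All 8 are annotated as protein coding.

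The stretches upstream of 4 of the genes are printed because Mcpt4, Cma1 and Gzmb were called and did not overlap between bone marrow and untreated cells, and because Mcpt1, close to Mcpt4 in sequence, differed from it in direction. Each is the 250 bases before the RefSeq start on GRCm38.p6, written 5′ to 3′ on the gene's own strand. Capitals mark TGATAA, a form of the motif bound by GATA factors, and the TATA box letters TATAAA.
Mcpt4 (GRCm38.p6 chr14:56062311-56062560, minus strand): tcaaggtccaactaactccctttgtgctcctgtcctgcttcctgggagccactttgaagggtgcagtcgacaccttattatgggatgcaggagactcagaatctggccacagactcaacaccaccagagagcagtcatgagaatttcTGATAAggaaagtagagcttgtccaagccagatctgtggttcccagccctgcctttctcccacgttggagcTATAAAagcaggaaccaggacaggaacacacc
Mcpt1 (GRCm38.p6 chr14:56017714-56017963, plus strand): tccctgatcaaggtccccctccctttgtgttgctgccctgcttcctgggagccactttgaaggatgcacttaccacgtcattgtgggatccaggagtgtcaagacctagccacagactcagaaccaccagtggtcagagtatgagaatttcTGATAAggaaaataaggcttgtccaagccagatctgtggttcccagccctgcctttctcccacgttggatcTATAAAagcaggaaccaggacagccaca
Cma1 (GRCm38.p6 chr14:55944676-55944925, minus strand): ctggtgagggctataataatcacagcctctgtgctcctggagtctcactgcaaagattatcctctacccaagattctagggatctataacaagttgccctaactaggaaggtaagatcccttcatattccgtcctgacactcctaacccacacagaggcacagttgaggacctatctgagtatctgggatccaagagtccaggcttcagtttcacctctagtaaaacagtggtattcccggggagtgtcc
Gzmb (GRCm38.p6 chr14:56262335-56262584, minus strand): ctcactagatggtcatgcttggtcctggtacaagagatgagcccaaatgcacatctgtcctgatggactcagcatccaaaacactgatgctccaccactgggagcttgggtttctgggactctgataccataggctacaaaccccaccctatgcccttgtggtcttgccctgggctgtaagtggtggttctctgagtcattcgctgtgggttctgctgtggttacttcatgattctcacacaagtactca
The windows of Mcpt4 and Mcpt1 were identical at 209 of 242 aligned bases (86.4%), and the other pairs of windows among the 6 genes with an entry were identical at 56.7% to 64.2% of aligned bases. TGATAA began 103 bases before the start of Mcpt4 and 99 bases before that of Mcpt1, and TATAAA began 32 and 28 bases before them. Both strands were searched for TATAAA and for the GATA letters, taken as TGATAA or with A as the first base (AGATAA). The windows of Cma1, Mcpt8, Mcpt9 and Gzmb held none of them. RefSeq starts can differ from the spans given above. The Gzmb window begins at 56262335 and its span ends at 56262260, so the bases between these were not searched. The Mcpt8 window (56085198 to 56085447) runs into its span, which ends at 56085273. Among all 32851 windows of this length in the RefSeq table, 16.6% held the GATA letters in either form and 12.4% held the TATA box letters, so these matches describe the letters only. Cma2 and Mcpt2 had no entry.

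The genes resemble each other closely enough that some reads cannot be placed. In GENCODE M21 transcripts, Cma2 and Mcpt9 were identical at 98.1% of 809 aligned bases, and 46.5% of the 50-base windows of Cma2 and 18.8% of those of Mcpt9 also occurred in another gene (Mcpt4, or each other). Values of Cma2 and Mcpt9 are therefore uncertain. The 50-base share was 5.48% for Mcpt4 and 5.38% for Cma1 (with the pseudogene Gm48934), and with 100 bases 0.0991% and 0. Within this set it was 0 for Mcpt1, Mcpt2, Mcpt8 and Gzmb, although Mcpt1 and Mcpt4 transcripts were identical at 85.2% of aligned bases. Matches of these genes outside the set were not searched for.

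Libraries held 13068078 to 31781926 counts, and mitochondrial counts were 1.22% to 1.70% of the total in untreated resident cells, 2.39% to 3.96% in MC903 resident cells and 2.14% to 4.24% in bone marrow cells. The summed level of 7 mast cell markers lay between 49869 and 85602 CPM (counts scaled to a common library size) in all 14 libraries. Its members moved in both directions: between the resident groups Fcer1a (2.95 ± 0.232, log2 ± SE) and Tpsb2 were higher with MC903 and Ms4a2 (-0.84 ± 0.210) and Hdc (-0.98 ± 0.179) lower (edgeR adjusted p = 7.10e-07 for Fcer1a, 0.0350 for Ms4a2 and 0.00333 for Hdc), while Kit was not called. Itgb7, the integrin β7 gene, was 258 to 315 CPM in untreated resident, 138 to 276 CPM in MC903 resident and 395 to 657 CPM in bone marrow cells. The log2 difference of bone marrow from MC903 resident cells was 1.25 ± 0.213 (SE, edgeR adjusted p = 0.00237). From untreated cells it was 0.75 and was also called. Library 15 of the bone marrow group stood apart: 6 macrophage and dendritic cell markers summed to 4482 CPM there and to between 3.92 and 10.9 CPM in the other 3. The same markers summed to 0.0473 to 7.97 CPM in untreated resident and 9.37 to 22.4 CPM in MC903 resident cells, with no overlap, and 0 of the 4 that could be tested were called by edgeR between these groups (unadjusted p = 0.0436 for Adgre1 and 0.0356 for Itgax). The part of such cells in the differences between the resident groups was not tested. Its values are kept, and the bone marrow differences of Cma1, Mcpt4, Mcpt1, Mcpt2, Gzmb and Mcpt8 are also given without it. Fcer1a was called lower for the bone marrow group against MC903 resident cells (-0.90 ± 0.233, log2 ± SE, edgeR adjusted p = 0.0441). Without library 15 this difference was -0.74 and did not pass (adjusted p = 0.0730). Against untreated cells Fcer1a was called higher (2.05 ± 0.232, adjusted p = 8.89e-06), also without library 15. Among genes outside these 8 named here or below as called in a bone marrow comparison, Fcer1a and Il4ra lost a call without library 15. Both lost it against MC903 resident cells. Neutrophil markers summed to at most 9.12 CPM, keratinocyte markers to at most 8.23 CPM and fibroblast markers to at most 29.6 CPM. In pooled cells, a lower level can be fewer cells that make an RNA or less of it per cell, and these cannot be told apart.

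The 8 genes together took 3.84% ± 0.393 (SD, n = 5) of all counts in untreated resident libraries. That share was 7.26% ± 0.506 (SD, n = 5) with MC903 and 6.96% ± 1.01 (SD, n = 4) in the bone marrow group. Differences were tested for all 21014 genes that passed the filter on low counts, in a single edgeR quasi-likelihood fit, and a gene was called at a Benjamini-Hochberg adjusted p under 0.05. All 8 genes passed the filter. The 3 comparisons share groups, so they are not independent of each other.

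Between MC903 resident and untreated resident cells, 2 of the 8 genes were higher, 0 were lower and 6 did not pass. Over all genes 2.25% were called, 0.571% higher and 1.68% lower. Between bone marrow and MC903 resident cells, 2 were higher, 1 was lower and 5 did not pass, against 2.27% of all genes called, 1.32% higher and 0.952% lower. Between bone marrow and untreated resident cells, 4 were higher, 1 was lower and 3 did not pass, against 6.87% of all genes, 3.49% higher and 3.37% lower. The median log2 difference of the 8 genes was 0.62, 2.16 and 2.42 in the 3 comparisons, and that of all genes tested was 0.24, -0.28 and -0.14. Scaling by DESeq2 size factors moved the median of all genes to 0.40 and -0.43 in the first and second comparisons. It also moved their calls from 120 higher and 353 lower to 207 and 294, and from 277 higher and 200 lower to 167 and 242. Cma2 had a negative difference in the first comparison that turned positive under that scaling (0.0045); no other member changed sign with it.

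**Figure D1:**
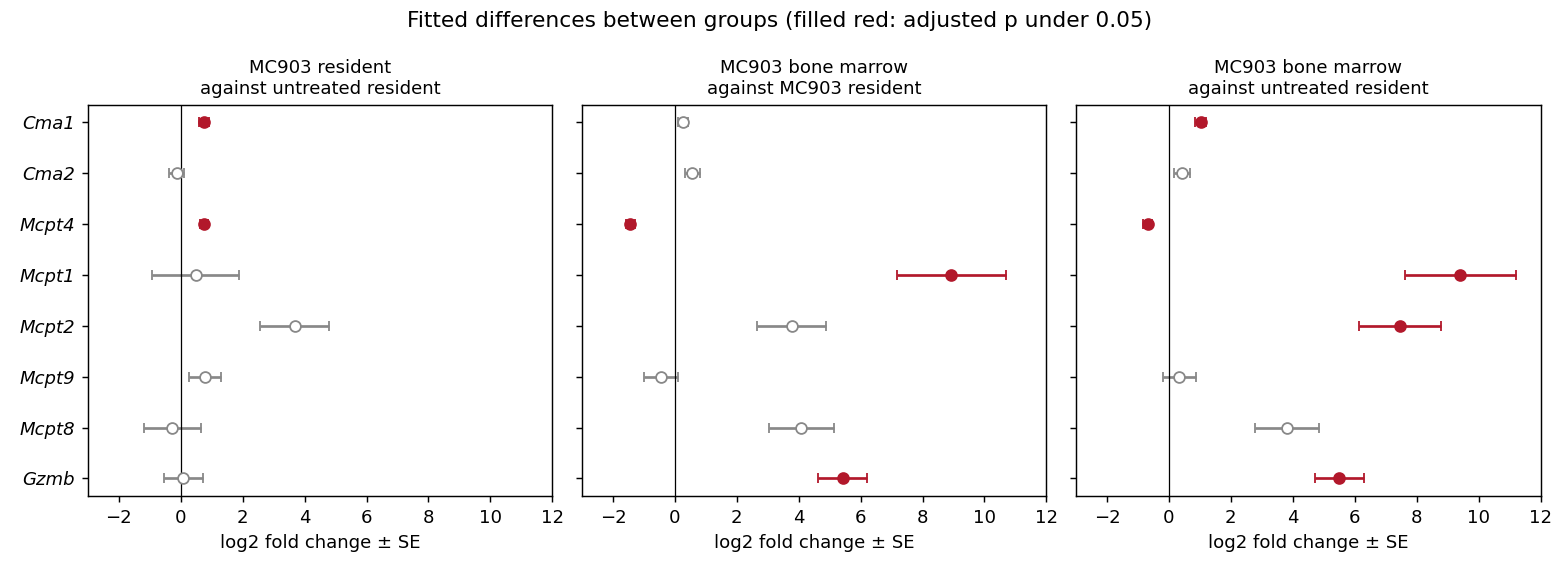
Fitted log2 differences with SE for each of the 8 genes (rows) in the 3 comparisons (panels); filled red points had an edgeR adjusted p under 0.05. Mcpt1 lies furthest to the right in both panels with bone marrow cells (8.93 and 9.41), and Mcpt4 is the gene called on the left of zero.

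The connective tissue chymases Cma1 and Mcpt4 were the 2 members with the highest CPM in every resident library, and they moved together with MC903 in resident cells but apart in the bone marrow group. Cma1, whose protein in mice has elastase-like rather than chymase-like specificity, stood at 21606, 22398, 22880, 24856 and 37448 CPM in libraries 1 to 5. It stood at 44868, 35302, 40387, 52356 and 45061 CPM in libraries 6 to 10, and at 52851, 59523, 56888 and 40640 CPM in libraries 11, 13, 14 and 15. Untreated library 5 lay above MC903 library 7, and otherwise every MC903 resident library was above every untreated one. Cma1 was 1.69-fold higher in MC903 resident than in untreated resident cells (log2 0.75 ± 0.165 (SE), edgeR adjusted p = 0.0135). Without library 5 the difference was 0.93 (adjusted p = 0.000883). With an offset for gene length it fell to 0.50 and did not pass (adjusted p = 0.317), and with all genes that had a count it was 0.72 (adjusted p = 0.106).

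Cma1 in bone marrow cells was above all untreated libraries and overlapped MC903 resident cells. The difference was 1.02 ± 0.173 (SE, 2.03-fold, edgeR adjusted p = 0.000651) against untreated cells and 0.27 ± 0.173 (adjusted p = 0.441) against MC903 resident cells. Without library 15, the lowest of the group, these were 1.13 (adjusted p = 5.86e-05) and 0.38 (adjusted p = 0.117).

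Mcpt4, whose protein is held to be the mouse counterpart of human chymase in activity, stood at 13079, 13829, 14135, 15958 and 13226 CPM in untreated resident cells. In MC903 resident cells it stood at 24781, 17864, 23134, 26015 and 26567 CPM, and in bone marrow cells at 7057, 9575, 8423 and 9900 CPM. No 2 groups overlapped: MC903 resident cells were highest and bone marrow cells lowest. MC903 resident cells were 1.69-fold above untreated ones (log2 0.75 ± 0.141 (SE), edgeR adjusted p = 0.00377), which did not pass with an offset for gene length (0.49, adjusted p = 0.160). Bone marrow cells were 2.71-fold below MC903 resident cells (-1.44 ± 0.154 (SE), edgeR adjusted p = 1.43e-05) and 1.61-fold below untreated ones (-0.68 ± 0.1504 (SE), adjusted p = 0.00626). Without library 15 these 2 differences were -1.49 (adjusted p = 3.27e-06) and -0.75 (adjusted p = 0.00298).

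Compared per kilobase of gene length, the level of Cma1 over that of Mcpt4 had a median ratio of 1.65 (range 1.58 to 2.88) in untreated resident cells and 1.84 (1.72 to 2.05) in MC903 resident cells. In bone marrow cells it was 6.59 (4.17 to 7.61), with library 15 at the low end. The highest ratio of the resident libraries was that of library 5, which was below all 4 bone marrow libraries.

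**Figure D2:**
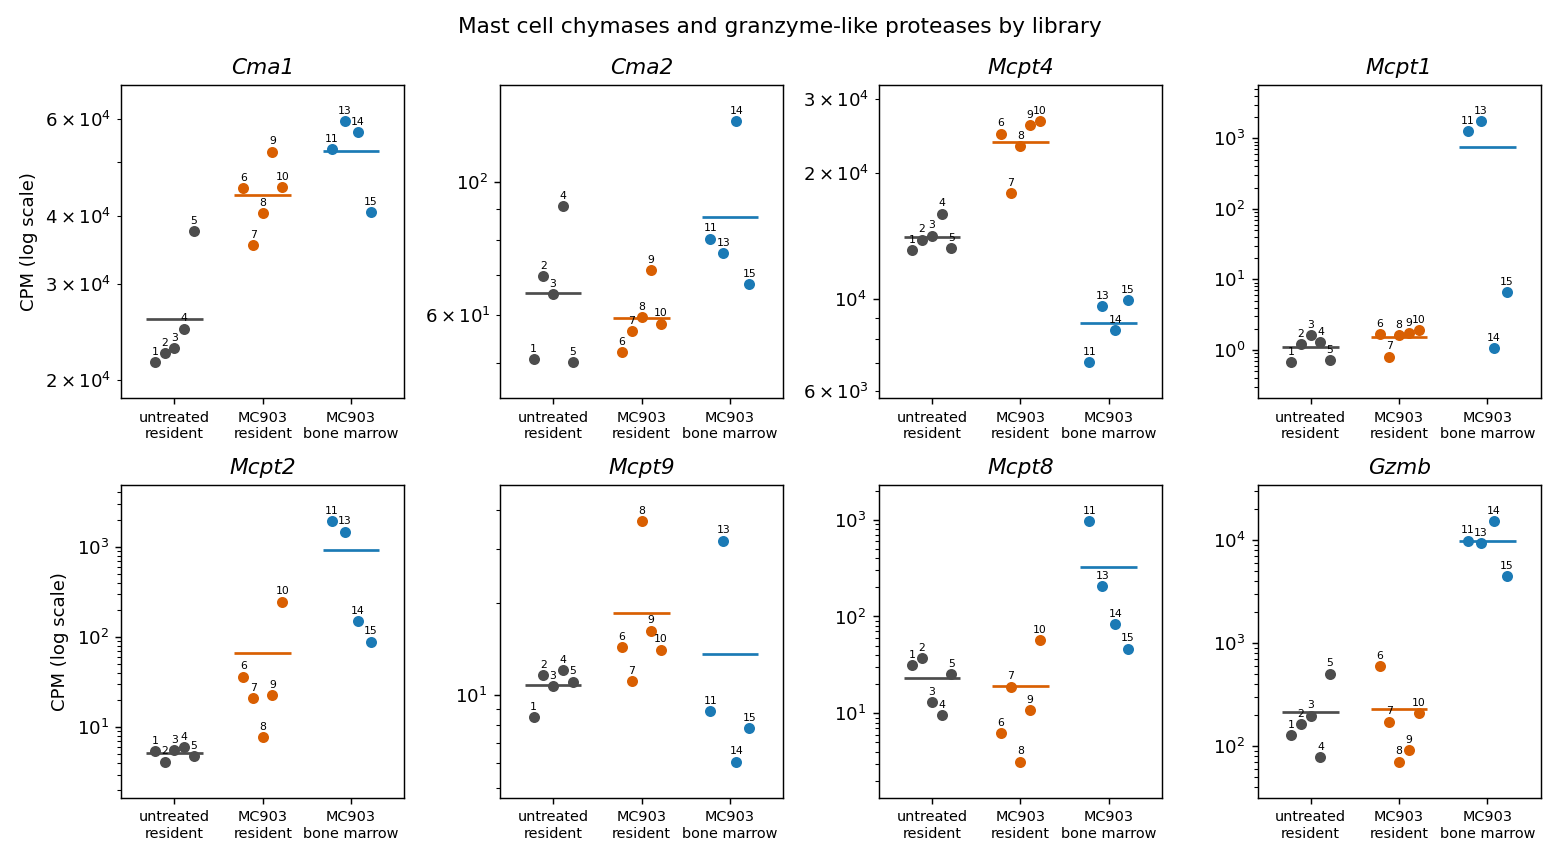
CPM on a log scale for each of the 8 genes; each point is a library, marked with its number, and each bar is the group mean. Mcpt4 separates all 3 groups and Gzmb is highest in the bone marrow group, whereas Mcpt1 reaches 1272 and 1760 CPM in libraries 11 and 13 and at most 6.57 CPM in the others.

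The mucosal chymases Mcpt1 and Mcpt2 were low in untreated cells and varied widely between the libraries of the bone marrow group. Mcpt1, whose protein is released in quantity by mucosal mast cells in intestinal worm infection, stood at 0.677, 1.23, 1.61, 1.28 and 0.712 CPM in untreated resident cells. It stood at 1.66, 0.808, 1.61, 1.74 and 1.89 CPM in MC903 resident cells, and at 1272, 1760, 1.06 and 6.57 CPM in bone marrow libraries 11, 13, 14 and 15. So 2 bone marrow libraries carried it at a high level, library 15 lay above the highest resident value of 1.89 CPM and library 14 lay within the resident range. Libraries 11 and 13 also had the fewest genes with a count of the 14 (16285 and 16025, against 19817 and 32814 in libraries 14 and 15); the part of this in the Mcpt1 values was not tested. Mcpt1 had 12 to 45 counts per resident library, and 30483, 50807, 25 and 130 counts in the 4 bone marrow libraries.

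The fitted difference of Mcpt1 between bone marrow and MC903 resident cells was 8.93 ± 1.76 (log2 ± SE, edgeR adjusted p = 0.0246), the 3rd highest of 21014. The groups overlapped, and the call did not survive leaving out library 11 (8.57, adjusted p = 0.0518), library 13 (8.07, adjusted p = 0.0588) or any of the 5 MC903 resident libraries (adjusted p up to 0.0702). It also did not pass with limma voomWithQualityWeights (6.21, adjusted p = 0.350) or with the MC903 groups fitted alone (8.83, adjusted p = 0.1002). Without library 15 it was 9.36 (adjusted p = 0.00761). Against untreated cells it was 9.41 ± 1.80 (SE, edgeR adjusted p = 0.00797), 9.82 without library 15 (adjusted p = 0.00301), and 6.56 with limma voomWithQualityWeights (adjusted p = 0.428). Between the 2 resident groups it was 0.48 ± 1.39 (SE, adjusted p = 0.947).

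Mcpt2 encodes the second mucosal chymase, for which little proteolytic activity is known. It stood at 5.48, 4.17, 5.65, 6.05 and 4.81 CPM in untreated resident cells. It stood at 36.4, 21.1, 7.84, 22.7 and 247 CPM in MC903 resident cells and at 1938, 1476, 149.6 and 88.9 CPM in bone marrow cells. Every MC903 library, resident or bone marrow, was above every untreated one, and library 10 of the resident group lay above bone marrow libraries 14 and 15.

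The difference of Mcpt2 between bone marrow and untreated cells was 7.45 ± 1.32 (log2 ± SE, edgeR adjusted p = 0.00499). It was 7.83 without library 15 (adjusted p = 0.00372), and 6.88 with limma voomWithQualityWeights, where it did not pass (adjusted p = 0.0822). MC903 resident cells differed from untreated ones by 3.68 ± 1.11 (SE), which did not pass in the fit of all groups (edgeR adjusted p = 0.135) and passed in the fit of the 2 groups alone (3.70, adjusted p = 0.00691) and with the DESeq2 Wald test (3.73, adjusted p = 0.00340). Without library 10 it was 2.18 (adjusted p = 0.262). Bone marrow and MC903 resident cells differed by 3.77 ± 1.12 (SE, edgeR adjusted p = 0.120), and by 5.27 without library 10 (adjusted p = 0.0250). Without library 15 this was 4.16 (adjusted p = 0.0730).

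Mcpt2 and Mcpt1 did not keep a fixed ratio. Per kilobase, the level of Mcpt2 was 3.25 to 7.73 times that of Mcpt1 in untreated resident cells and 4.66 to 125 times in MC903 resident cells. In bone marrow cells it was 1.46 times in library 11, 0.801 times in library 13, 134 times in library 14 and 12.9 times in library 15. The 2 libraries with high Mcpt1 had the lowest ratios of the 14, but Mcpt1 is the divisor of this ratio. In resident libraries the ratio rests on 12 to 45 counts of Mcpt1.

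Gzmb, encoding granzyme B, was higher in all 4 bone marrow libraries than in any resident one. It stood at 127, 164, 197, 78.1 and 503 CPM in untreated resident cells and at 592, 172, 70.5, 91.5 and 207 CPM in MC903 resident cells. In bone marrow libraries 11, 13, 14 and 15 it stood at 9797, 9245, 15277 and 4481 CPM. The lowest bone marrow library, 15, was above the highest resident one, 6, while the 2 resident groups overlapped widely.

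Gzmb in the bone marrow group exceeded that of MC903 resident cells 42.8-fold (log2 5.42 ± 0.786 (SE), edgeR adjusted p = 0.00365), the 59th highest difference of 21014 genes. Against untreated resident cells it was 45.4-fold higher (5.50 ± 0.789 (SE), edgeR adjusted p = 0.00113). It was lowest in library 15, and without that library the differences were 5.66 (adjusted p = 0.00435) and 5.75 (adjusted p = 0.00167). Between the resident groups the difference was 0.085 ± 0.642 (SE, adjusted p = 0.985).

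Genes of cytotoxic lymphocytes were looked at beside Gzmb. The 10 markers summed to 11.6 to 41.2 CPM in untreated resident, 34.6 to 89.3 CPM in MC903 resident and 157 to 346 CPM in bone marrow cells, and 1 of the 7 that could be tested was called in the bone marrow group. That gene was Nkg7, a granule membrane protein gene of cytotoxic cells, with 198, 190, 335 and 149.7 CPM in libraries 11, 13, 14 and 15 (log2 2.02 ± 0.352 (SE) against MC903 resident cells, edgeR adjusted p = 0.00295). Gzma, the granzyme A gene, had 0 counts in all 4 bone marrow libraries. Prf1, the perforin gene, was at 0 in libraries 11 and 14, at 9.28 CPM in library 13 and at 0.505 CPM in library 15. Of the T cell markers in that group, Cd3g reached 7.66 CPM (library 14), Trac 3.88 CPM (library 13), Cd8a 2.88 CPM (library 15) and Cd3e 2.81 CPM (library 14). Klrb1c and Ncr1, natural killer cell genes, were at most 0.101 and 0.0505 CPM in that group, and Ccl5 at most 0.831 CPM. Klrb1c was 0.194 to 5.31 CPM in MC903 resident cells, above the bone marrow libraries (log2 -6.50 ± 2.24 (SE), edgeR adjusted p = 0.138). In libraries 11, 13, 14 and 15, 7, 6, 6 and 2 of the 10 markers were at 0. The part of lymphocytes in the Gzmb values was not tested.

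Mcpt8 encodes a basophil protease and serves as a basophil marker in mice. It stood at 31.7, 37.2, 12.98, 9.50 and 25.1 CPM in untreated resident cells and at 6.22, 18.8, 3.15, 10.8 and 57.0 CPM in MC903 resident cells. Bone marrow libraries 11, 13, 14 and 15 had 976, 205, 83.2 and 46.5 CPM. All 4 were above the untreated range, and library 15 lay below MC903 resident library 10.

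For Mcpt8 the bone marrow difference was 3.81 ± 1.04 (log2 ± SE) against untreated cells, which did not pass (edgeR adjusted p = 0.0502; it passed under 6 of 8 other settings), and 4.09 ± 1.05 (SE, adjusted p = 0.0770) against MC903 resident cells. Without library 15 both passed, at 4.19 (adjusted p = 0.0354) and 4.47 (adjusted p = 0.0471), and without library 11 they were 2.26 (adjusted p = 0.157) and 2.54 (adjusted p = 0.188). The resident groups differed by -0.28 ± 0.916 (SE, adjusted p = 0.955). The 4 other basophil markers summed to 523 to 817 CPM in untreated resident, 540 to 735 CPM in MC903 resident and 292 to 686 CPM in bone marrow cells, most of it from Cd200r3, which mast cells also express. Prss34, a basophil protease gene, was at 4.76, 15.8, 0.383 and 0 CPM in bone marrow libraries 11, 13, 14 and 15, and reached 42.0 CPM in MC903 resident library 7. Itga2 was lower in the bone marrow group (against MC903 resident cells -1.41 ± 0.277 (SE), edgeR adjusted p = 0.00673). In that comparison Il3ra (0.27 ± 0.304, adjusted p = 0.697), Cd200r3 (-0.12 ± 0.229, adjusted p = 0.828) and Prss34 (-0.96 ± 1.71, adjusted p = 0.822) were not called. The part of basophils in the Mcpt8 values was not tested.

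Cma2 and Mcpt9, the near-identical pair, were low and were not called in any comparison by edgeR. Cma2 stood at 50.7, 69.8, 65.1, 91.1 and 50.2 CPM in untreated resident cells. It stood at 52.1, 56.4, 59.5, 71.2 and 58.1 CPM in MC903 resident cells and at 80.4, 76.0, 126 and 67.5 CPM in bone marrow cells. The ranges overlapped in all comparisons, and the differences were -0.14 ± 0.232, 0.56 ± 0.245 and 0.42 ± 0.245 (log2 ± SE, edgeR adjusted p = 0.901, 0.238 and 0.349) in the order used above. Its exons share 48 bases with the pseudogene Mcpt-ps1 on the other strand, and whether counting used the strand was not given in the sources used here.

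Mcpt9, known from mast cells of the uterus, stood at 8.47, 11.6, 10.7, 12.1 and 11.1 CPM in untreated resident cells and at 14.4, 11.1, 37.0, 16.2 and 14.1 CPM in MC903 resident cells. In bone marrow cells it stood at 8.89, 31.9, 6.08 and 7.83 CPM. Library 8 and library 13 were each well above the rest of their groups. The differences were 0.78 ± 0.515, -0.44 ± 0.547 and 0.34 ± 0.541 (log2 ± SE, edgeR adjusted p = 0.623, 0.732 and 0.793), and the last turned to -0.51 without library 13.

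Set against each other per kilobase, the 8 genes kept Cma1 first in every group, with Mcpt4 second by mean. In the bone marrow group the second place was not settled: per kilobase Gzmb was above Mcpt4 in libraries 11 and 14 and below it in libraries 13 and 15, and by mean CPM, without division by length, Gzmb (9700) was above Mcpt4 (8739). In untreated resident cells the mean levels were 23705 CPM per kb for Cma1, 12676 for Mcpt4, 149 for Gzmb, 59.5 for Cma2, 23.3 for Mcpt8, 5.39 for Mcpt9, 4.93 for Mcpt2 and 1.08 for Mcpt1, and the neighbours whose ranges overlapped were Gzmb with Cma2 and Mcpt9 with Mcpt2. In MC903 resident cells Cma1 (39995 CPM per kb) and Mcpt4 (21365) were again apart from the rest, and Mcpt1 (1.52) was apart at the bottom. From Gzmb (158) through Mcpt2 (63.1), Cma2 (54.1) and Mcpt8 (19.2) to Mcpt9 (9.28), neighbours overlapped. The bone marrow order had Cma1 (48143 CPM per kb) apart from Mcpt4 (7887), which overlapped Gzmb (6755). Below them Mcpt2 (861), Mcpt1 (749), Mcpt8 (328) and Cma2 (79.7) overlapped in turn, and Mcpt9 (6.83) was apart at the bottom.

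As a share of the summed level per kilobase of the 8 genes, Cma1 made up 64.1% ± 5.29 (SD, n = 5) in untreated resident, 64.9% ± 1.79 (SD, n = 5) in MC903 resident and 74.3% ± 0.769 (SD, n = 4) in bone marrow cells. Mcpt4 made up 35.3% ± 5.45, 34.6% ± 1.66 and 12.6% ± 3.75 in the same order. Gzmb made up 0.384% ± 0.226, 0.256% ± 0.229 and 10.1% ± 3.67. Mcpt1 and Mcpt2 in bone marrow cells made up 1.07% ± 1.25 and 1.26% ± 1.29 and Mcpt8 0.495% ± 0.666 (SD, n = 4). The shares of Cma1, Mcpt4 and Gzmb in the 2 resident groups differed by less than their spread, and the bone marrow libraries had less Mcpt4 and more Gzmb than any resident library.

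**Figure D3:**
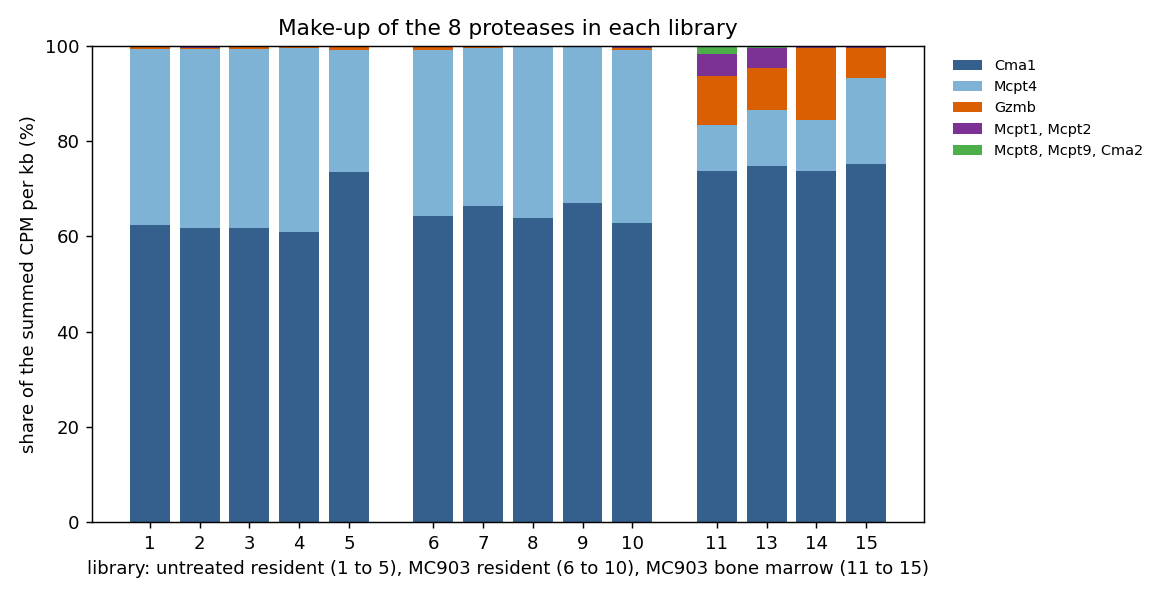
Share of the summed CPM per kilobase of the 8 genes taken by each gene or pair of genes (colours), for each library (bars, grouped by cell group). Cma1 and Mcpt4 fill nearly all of each resident bar, and Gzmb takes 6.30% to 15.03% of each bone marrow bar.

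Of the other 8 genes of the locus, 6 were at or near 0. Ctsg, encoding cathepsin G, a chymotrypsin-like protease better known from neutrophils and also made by mast cells, was the 1 of the 6 that could be tested to be called. It stood at 371, 422, 542, 347 and 659 CPM in untreated resident, 239, 241, 177, 249 and 366 CPM in MC903 resident, and 2185, 2783, 2719 and 1253 CPM in bone marrow cells. The bone marrow libraries were all above the resident ones, by 3.13 ± 0.258 (log2 ± SE, edgeR adjusted p = 1.24e-06) against MC903 resident and 2.26 ± 0.251 (adjusted p = 7.46e-06) against untreated cells. Without library 15 these were 3.34 (adjusted p = 2.50e-09) and 2.45 (adjusted p = 1.47e-07). Between the resident groups the value was -0.88 ± 0.234 (SE, adjusted p = 0.0514).

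Gzmc, Gzmd, Gzme, Gzmf, Gzmg and Gzmn, the granzyme genes between Ctsg and Gzmb, had group means of at most 1.96 CPM per kb, and the first 3 and Gzmn were not called in any comparison. Gzmf and Gzmg were too low to test, and Gzmf was at 0 in all untreated libraries and at most 3.73 CPM in MC903 resident cells. Mcpt-ps1 had mean levels of 242 ± 76.3, 313 ± 44.9 and 386 ± 157 CPM (SD, n = 5, 5 and 4) and was not called, although without library 15 its bone marrow level was above that of untreated cells (0.85 ± 0.237 (SE), edgeR adjusted p = 0.0322). None of the 4 genes tested that lie beside the locus (Sdr39u1, Khnyn, Cbln3 and Nynrin) was called in any of the 3 comparisons by edgeR. Gzmb and Ctsg, both higher in the bone marrow group, are separated by the granzyme genes that were at or near 0.

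**Figure D4:**
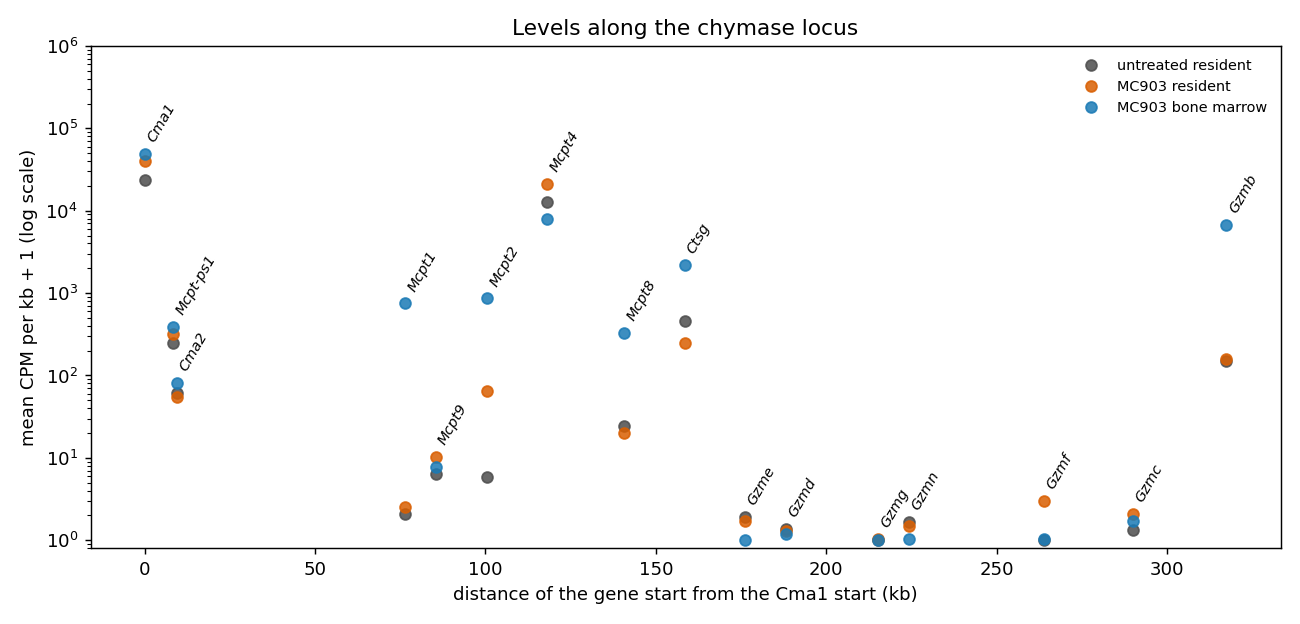
Mean CPM per kilobase plus 1 (log scale) of each gene of the locus against the distance of its start from the start of Cma1 in kb; colours are the 3 groups. The granzyme genes between Ctsg and Gzmb lie near the bottom in every group, and Gzmb and Ctsg are far higher in the bone marrow group than in the others.

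Among the 4 other granule proteases, the tryptases and carboxypeptidase did not follow a common course. Tpsb2, the main mast cell tryptase gene, was higher in MC903 resident than in untreated cells (0.99 ± 0.159 (log2 ± SE), edgeR adjusted p = 0.00104) and Tpsg1, a membrane-anchored tryptase gene, was lower (-1.05 ± 0.162, adjusted p = 0.000749). In bone marrow cells Tpsab1, the second soluble tryptase gene, lay above MC903 resident cells (0.88 ± 0.145, adjusted p = 0.00163), the 1 of 4 called there. Against untreated cells, bone marrow cells had higher Tpsb2 (0.79 ± 0.167, adjusted p = 0.00473) and Cpa3, the mast cell carboxypeptidase gene (0.65 ± 0.196, adjusted p = 0.0493), and lower Tpsg1 (-1.10 ± 0.174, adjusted p = 0.000313). Cpa3 libraries of the 2 groups overlapped, and without library 15 its difference was 0.80 (adjusted p = 0.00541).

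Of 9 genes that activate or store the proteases, 0 were called between the resident groups by edgeR. Against either resident group, 3 were called for the bone marrow libraries, 2 of them upward and 1 downward. Ctsc encodes cathepsin C, which removes the activation dipeptide of chymases, cathepsin G and granzyme B. Ctsc stood at 306 to 488 CPM in untreated resident and 208 to 390 CPM in MC903 resident cells, and at 715, 969, 1024 and 2093 CPM in bone marrow libraries 11, 13, 14 and 15. It was 4.05-fold higher than in MC903 resident cells (2.02 ± 0.267 (SE), edgeR adjusted p = 0.000159). It was highest in library 15, the one with macrophage markers, and without that library the difference was 1.61 ± 0.217 (SE, adjusted p = 7.43e-05).

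Srgn, the serglycin gene, was higher in the bone marrow group, by 0.86 ± 0.190 (log2 ± SE, edgeR adjusted p = 0.0179) against MC903 resident cells and by 0.95 ± 0.190 (adjusted p = 0.00288) against untreated cells. Hs2st1, a heparan sulfate sulfotransferase gene, was lower by -1.23 ± 0.225 (adjusted p = 0.00395) and -1.21 ± 0.225 (adjusted p = 0.00152). Both calls held without library 15 (Srgn 0.996 and 1.09, Hs2st1 -1.25 and -1.24). The genes of the proteoglycan core and the activating enzyme were thus higher in the bone marrow group, as were Gzmb and Ctsg. Within that group Ctsc was highest in library 15, where Gzmb, Ctsg and Srgn were lowest. Ext1, Ext2, Ndst1, Ndst2, Glce and Hs6st1 were not called.

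Of 9 protease inhibitor genes, 8 could be tested. Serpina3g, an intracellular serpin gene, was the 1 called higher in MC903 resident cells: it was 0 to 0.903 CPM in untreated and 4.03 to 34.5 CPM in MC903 resident cells (6.28 ± 0.949 (log2 ± SE), edgeR adjusted p = 0.000902). It was 28.0 to 75.5 CPM in bone marrow cells. Serpinb6a, whose protein inhibits cathepsin G, was 420 to 511, 202 to 406 and 83.9 to 181 CPM in untreated resident, MC903 resident and bone marrow cells, and fell by 1.18 ± 0.244 (log2 ± SE, edgeR adjusted p = 0.0103) from MC903 resident to bone marrow cells. Serpinb1a, encoding an inhibitor of neutrophil serine proteases and chymase, was lower in bone marrow than in untreated cells (-0.75 ± 0.182, adjusted p = 0.0130). Serpinb9, the inhibitor of granzyme B, had means of 11.5 ± 4.88, 11.95 ± 3.68 and 29.2 ± 16.3 CPM (SD, n = 5, 5 and 4) and was not called (edgeR adjusted p = 0.172 against MC903 resident cells).

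Of 20 transcription factor, receptor and signalling genes that are known to act on mast cell protease expression, 19 could be tested. Gata1, a GATA factor gene of the mast cell lineage, was higher in MC903 resident than in untreated cells (0.80 ± 0.199 (log2 ± SE), edgeR adjusted p = 0.0348). Il10ra, the interleukin-10 receptor gene, was lower there (-1.501 ± 0.236, adjusted p = 0.000902) and in bone marrow against untreated cells (-1.12 ± 0.251, adjusted p = 0.00740). Il4ra, the interleukin-4 receptor gene, was higher in bone marrow than in untreated cells (1.55 ± 0.305, adjusted p = 0.00252) and than in MC903 resident cells (1.21 ± 0.303, adjusted p = 0.0383), and the latter did not pass without library 15 (1.04, adjusted p = 0.0707). The others, among them Mitf, Gata2, Runx1, Smad2, Smad3, Tgfbr1 and Tgfbr2, were not called.

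Genes with the most similar pattern were sought for Mcpt1, Mcpt2 and Mcpt4 among 7929 candidates. Candidates were tested genes whose mean over libraries reached 10 CPM, leaving out predicted-gene and clone symbols and mitochondrial genes. The most similar genes were those with the smallest root mean square difference of centred log2 CPM over the 14 libraries. For Mcpt4 they were Gp1ba (0.28), Cyb5a (0.30), Pam16 (0.34), Ddah2 (0.35) and Arf2 (0.37). For Mcpt2 they were Sema4d (1.36), Lif (1.504), Napsa (1.59), Tent5c (1.74) and Akr1c12 (1.75), and for Mcpt1 they were Mcpt2 (2.03), Ifitm1 (2.29), Mcpt8 (2.43), Lif (2.44) and Napsa (2.55). The distances are larger for Mcpt1 and Mcpt2 than for Mcpt4. In library 14 Ifitm1 and Mcpt1 (1.06 CPM for both) lay within their untreated ranges, whereas Mcpt2 and Lif lay above theirs. Each of these genes lay within its MC903 resident range there. Ifitm1 was picked by its likeness to Mcpt1 over these same libraries. Its mean reached 10 CPM through bone marrow libraries 11, 13 and 15 (276, 112 and 18.1 CPM), with at most 6.92 CPM in resident cells.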

How the data were processed

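Per the labels' protocols, complementary DNA was made with SMART-Seq HT and libraries with Nextera XT. Per the submitters' processing notes, STAR and featureCounts were used with mm10; versions, trimming, strand setting, annotation release and treatment of multi-mapped reads were not given in the sources used here. The authors deposited raw counts of reads per gene for 55487 genes in 14 columns, all used. Of the gene identifiers, 55094 matched GENCODE M21 with the same version and coordinates (GRCm38), and 55394 had a symbol. Reads were amplified and carry no molecular identifiers, so they do not stand for separate molecules.

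The filter filterByExpr, applied by group with a minimum count of 10 and a minimum total of 15, left 21014 genes. One model of the 3 groups without covariates was fitted with edgeR 4.0.16 (TMM, glmQLFit with robust estimation, glmQLFTest; R 4.3.3), with Benjamini-Hochberg adjustment over all genes tested and calls under 0.05. Its common dispersion was 1.33. SE is the absolute log2 difference over the square root of F. CPM are counts over library total times TMM factor, given as mean ± SD, and per kb by the length in the deposited table. No 2 libraries held identical counts.

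Named were the 8 genes, all locus genes, the called genes of the other lists and, for 3 members, the 5 genes of most similar pattern (prior count 2). Genes that were not called are also named in places, chosen after their values were seen. Stxbp6, first listed as beside the locus, lies on chromosome 12, was left out there and was not called. Members and lists were chosen with earlier results of these data known. Alternatives were DESeq2 size factors, TMM factors from genes above a mean of 10 CPM, an offset for gene length in 20 bins, no filter, a mean of 10 CPM as the filter, a Wald test in DESeq2 1.42.0, voomWithQualityWeights in limma 3.58.1, and only the 2 groups compared. Each library of the 2 groups compared was also left out in turn.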

Additional observations from a re-analysis of the deposited data

Results flagged for a closer look

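In 9 of 48 groups of values checked, a single library lay far from the others of its group by Dixon's test. For normally distributed values that test picks out about 1 in 20 groups by chance, and its rate for CPM values was not measured. In untreated resident cells, library 5 had 37448 CPM of Cma1 (next 24856) and 503 CPM of Gzmb (next 197). In MC903 resident cells, library 10 had 247 CPM of Mcpt2 (next 36.4), library 8 had 37.0 CPM of Mcpt9 (next 16.2), library 6 had 592 CPM of Gzmb (next 207) and library 7 had the lowest Mcpt1, at 0.808 CPM (next 1.61). In bone marrow cells, library 11 had 976 CPM of Mcpt8 (next 205) and library 13 had 31.9 CPM of Mcpt9 (next 8.89). The macrophage and dendritic cell markers summed to 4482 CPM in bone marrow library 15 (next 10.9).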

How the results depend on the processing

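Gzmb and Mcpt4 in both bone marrow comparisons, and Cma1 in bone marrow against untreated cells, kept their direction and their call under all 8 other settings. They also kept them with each library of the 2 groups compared left out in turn. Libraries of the third group were not left out. No paired analysis was possible because the groups share no replicate numbers.

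Between the resident groups, 473 genes were called, and 1072 with the DESeq2 Wald test and 1358 with limma voomWithQualityWeights (320 to 516 with a library left out). Members called there went from 2 to 0 with the length offset, to 1 without the filter, and to 3, with Mcpt2 added, with the DESeq2 Wald test and with only the 2 groups. Cma2 turned positive with DESeq2 size factors (0.0045), TMM factors from genes above 10 CPM (0.054), the filter at 10 CPM (0.054) and the DESeq2 Wald test (0.0043), and ranged from -0.21 to 0.10 with a library left out. Gzmb turned to -0.036 with the length offset and ranged from -0.64 to 0.69 with a library left out, and Mcpt8 from -1.14 to 0.050.

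Between bone marrow and MC903 resident cells, 477 genes were called, and 748 without the filter, 1720 with the DESeq2 Wald test, 2017 with limma voomWithQualityWeights and 315 with only the 2 groups. With a library left out it was 298 to 704, at 298 without library 6, 302 without library 7 and 704 without library 15. Members called went from 3 to 5 with the DESeq2 Wald test, which added Mcpt2 and Mcpt8 (adjusted p = 0.00618 and 0.000534). They also went to 5 with limma voomWithQualityWeights, which added Mcpt2, Mcpt8 and Cma1 and lost Mcpt1. TMM factors from genes above 10 CPM gave 178 higher and 254 lower calls, and 251 and 266 between the resident groups.

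Against untreated cells, bone marrow cells had 1443 genes called, 2757 with the DESeq2 Wald test and 2194 with limma voomWithQualityWeights (1122 to 1549 with a library left out). Mcpt8 passed under 6 of the 8 other settings (adjusted p = 0.000480 to 0.102 over all 8). Mcpt9 ranged from -0.51 to 0.58 with a library left out. Without division by length, the share of Cma1 in bone marrow cells was 72.0%, and that of Gzmb (12.9%) was above that of Mcpt4 (12.4%). Causes of these shifts were not tested.

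Limits are the small number of libraries, the amplification from few cells, and reads shared by Cma2, Mcpt9 and Mcpt4.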
